A study of Mus musculus with 8 samples.

Results

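The genes described here are 38 genes of homologous recombination and DNA crosslink repair, picked by gene symbol from the pathway's core proteins. All 38 were among the 22911 genes of the deposited table, and all 38 passed the filter on low counts, which kept 15098 genes. RNA was sequenced from epithelial cells of the buccal mucosa of adult wild-type C57BL/6 mice. The cells were freed with dispase II, a protease that lifts epithelium off its underlying tissue, and collected by fluorescence-activated cell sorting. The mice were either germ-free (GF), that is, raised without any microbes, or specific pathogen-free (SPF), that is, with a normal microbiota but free of listed pathogens. Neither group had been treated. Each group held 4 animals with 1 library per animal (GF 1 to 4, and SPF 1, 3, 4 and 5), so n = 4 for each mean and standard deviation (SD) given here. The comparison asks how gene expression in oral epithelium differs between mice without and with resident microbes.

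Homologous recombination mends broken DNA by copying an intact sister chromatid, and so works mainly in dividing cells after DNA synthesis has begun. Nucleases first trim the broken ends to single strands, the BRCA proteins then prepare these strands to invade the intact chromatid, and nucleases resolve the joined molecules at the end. The Fanconi anaemia pathway feeds into the same machinery when a crosslink ties both DNA strands together: a core complex of ligase subunits marks the FANCD2 and FANCI pair, which then recruits nucleases. In stratified epithelium the dividing cells lie in the basal layers, and the transcripts of many of these genes are known to be more abundant in dividing cells.

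Gene counts summed to between 10430507 and 15524731 per library in the GF group and between 10260264 and 14730960 in the SPF group. The 38 genes were covered by 18 to 2733 counts per library. Levels are given as CPM (counts relative to library size) scaled by the trimmed mean of M values (TMM), or, for comparisons between genes, as RPKM, which is that CPM divided by the exon length in kilobases. The 8 basal keratinocyte markers, among them Krt5 and Krt14, summed to between 34488 and 37203 CPM in GF libraries and between 33170 and 35850 CPM in SPF libraries, so markers of the labelled tissue were abundant in each library. The 10 suprabasal keratinocyte markers summed to between 14474 and 23237 CPM in GF libraries and between 16913 and 25400 CPM in SPF libraries. Among them Krt1, a keratin of cornifying epithelium, was at 1480 CPM in GF 3 and 2465 CPM in SPF 5. It was at 15.6 to 269 CPM in the other GF libraries and 39.4 to 189 CPM in the other SPF libraries. Krt10 was also highest in GF 3 (1290 CPM) and SPF 5 (1791 CPM). The markers did not all follow, as Krt4 (4881 CPM) and Krt13 (8650 CPM) were lowest among SPF libraries in SPF 5. The 13 fibroblast markers summed to 107, 159, 827 and 109 CPM in GF libraries 1 to 4, against 79.7 to 113 CPM in SPF libraries, so GF 3 stood apart. Of the 11 fibroblast markers tested 9 had a log2 fold change above 0, with a median of 2.73 and 6 at an unadjusted p under 0.05. By edgeR 1 was called lower, Thy1, and 0 higher, and DESeq2 called 2 higher and 1 lower. The 11 endothelial markers summed to between 14.8 and 129 CPM in GF libraries, against 5.17 to 13.9 CPM in SPF libraries, with all 9 tested above 0 (median 2.27), of which edgeR called 2 higher, DESeq2 4 and limma voom 1. Emcn, an endothelial sialomucin gene, was at 0 counts in 3 of 4 SPF libraries and in 0 of 4 GF libraries. Tek and Plvap were each at 0 counts in 2 of 4 SPF libraries and in 0 of 4 GF libraries. Cdh5 was at 0 counts in 1 of 4 SPF libraries and in 0 of 4 GF libraries. The endothelial marker Cldn5 was at 0 counts in 3 of 4 GF and 2 of 4 SPF libraries. Its highest level was nonetheless in GF 3, at 1.599 CPM, against 0 to 0.3053 CPM in SPF libraries. Pecam1, Kdr, Tie1, Esam, Vwf and Egfl7 were at 0 counts in no library. Markers of immune cells summed to between 5.20 and 34.2 CPM in GF libraries and between 6.26 and 14.6 CPM in SPF libraries. GF 2 stood apart for Ptprc, the pan-leukocyte marker CD45, at 13.1 CPM. The other GF libraries were at 0.147 to 1.09 CPM and SPF libraries at 0.291 to 1.604 CPM. Laptm5 was also high in GF 2, at 15.71 CPM, but the immune markers did not all follow. Cd74 and H2-Ab1 were at 0.726 and 0.396 CPM in GF 2, against 1.526 to 4.585 and 1.748 to 4.887 CPM in SPF libraries. The part of these other cells in the results was not tested, and values without GF 2, GF 3 and SPF 5 are given beside Ankle1, Fancd2 and Atm.

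Of the 38 repair genes, 2 fell in GF epithelium, Ankle1 and Fancd2, and 1 rose, Atm. The call used edgeR's quasi-likelihood test at a Benjamini-Hochberg adjusted p under 0.05 over all genes tested. Over all 15098 genes the same test called 4.18% (2.33% lower and 1.85% higher), so the count of repair genes called lay near the background. The other 35 did not pass. In 26 of the 38 the log2 fold change (GF over SPF) was below 0, which is 68.4% of them against 47.1% of all genes tested, and the median was -0.22 against 0.0209 over all genes. For 8 of the 38 no GF library lay within the SPF range, 5 of them lower and 3 higher in GF libraries. Over all genes 13.1% had such groups, 6.84% lower and 6.24% higher. An unadjusted p under 0.05 was reached by 13 of the 38, where 19.5% of all genes reached it. The DESeq2 Wald test called 5 of the 38, adding Rad54l and Chek2, where it called 8.5% of all genes, and limma voom with quality weights called 6, adding Rad54l, Brip1 and Fanci, where it called 6.69%. With 1 library left out edgeR called 2 to 5 of the 38. Over all genes it then called 4.41%, 3.37%, 2.46% and 1.85% without GF 1, 2, 3 and 4, and 3.58%, 1.82%, 1.93% and 2.04% without SPF 1, 3, 4 and 5. The plot of fold changes by role shows the spread of the whole set.

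**Figure D1:**
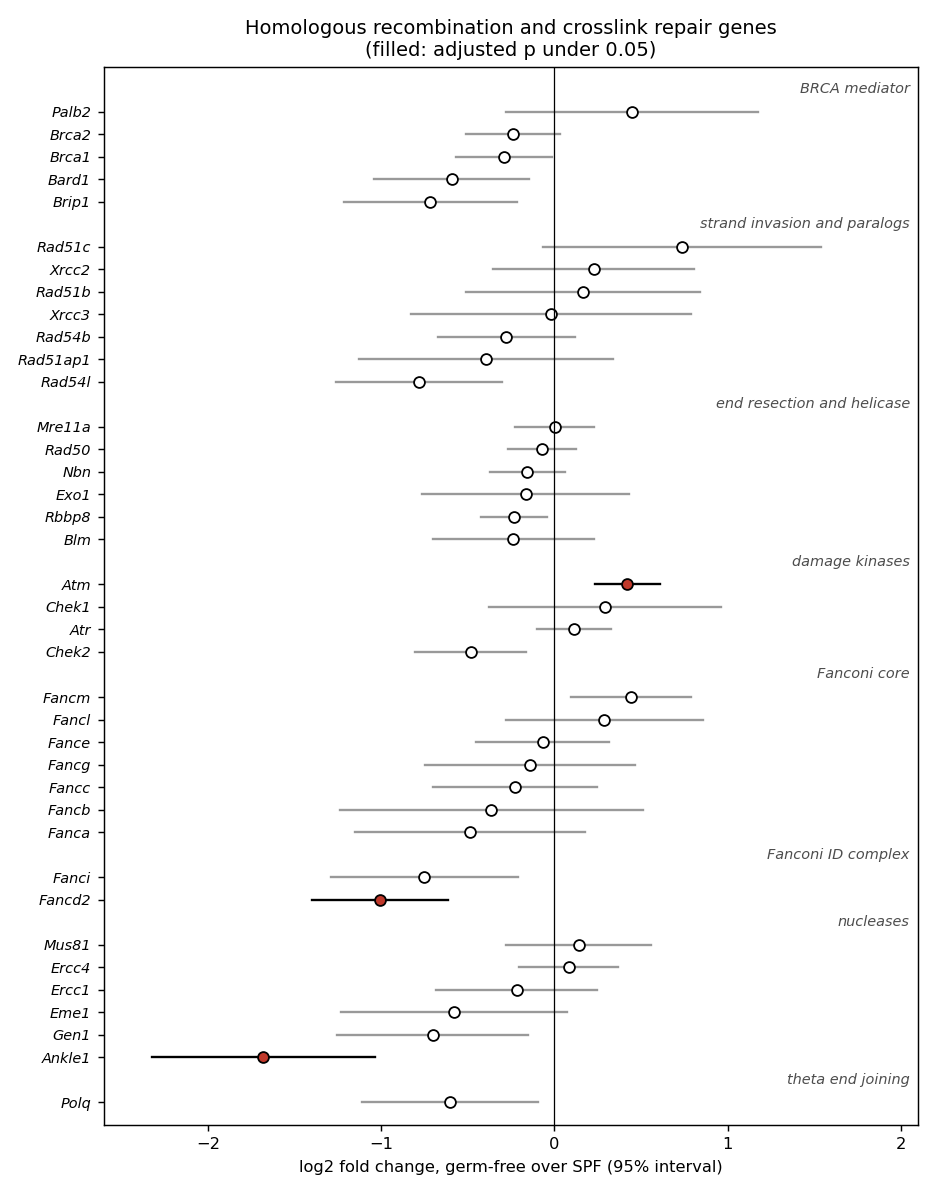
The log2 fold change of GF over SPF (horizontal axis) is drawn for each of the 38 repair genes, grouped by role, with its 95% interval; n = 4 libraries per group. Filled points mark the 3 genes called at an adjusted p under 0.05, Ankle1 at -1.68, Fancd2 at -1.01 and Atm at 0.42, and the other 35 points are open.

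Ankle1, which encodes an ankyrin-repeat and LEM-domain endonuclease, had the largest fold change of the 38. Its counterpart in the worm Caenorhabditis elegans, LEM-3, cuts chromatin bridges that remain between dividing cells. It had 8.16, 6.00, 3.33 and 2.88 CPM in GF libraries 1 to 4, against 16.1, 20.05, 14.6 and 14.8 CPM in SPF libraries 1, 3, 4 and 5. Each GF library was below each SPF library, and within the GF group libraries 3 and 4 were the lowest. The gene (ENSMUSG00000046295, GRCm38 chromosome 8, 71406010 to 71409904, plus strand) fell to 5.09 ± 2.47 CPM in GF libraries, against 16.4 ± 2.54 CPM in SPF libraries (SD). On the log2 scale the difference was -1.68 ± 0.30 (standard error, SE), or 3.20-fold lower (edgeR adjusted p = 0.00791). The call was kept with any 1 library left out, with log2 fold changes from -2.01 to -1.49, at -1.77 without GF 2 (adjusted p = 0.0196), -1.52 without GF 3 (adjusted p = 0.0228) and -1.73 without SPF 5 (adjusted p = 0.0204). The promoter is shown with its match to the cell cycle homology region (CHR), an element that many genes of mitosis are known to carry near their start. Whether this match bears on the level of Ankle1 was not tested. The RefSeq sequence covers 250 bases before to 50 bases after the start site (GRCm38.p6, chr8:71405762-71406061, plus strand), and its 1 match to the CHR letters, which begins 10 bases before the start site, is in capitals.
Ankle1: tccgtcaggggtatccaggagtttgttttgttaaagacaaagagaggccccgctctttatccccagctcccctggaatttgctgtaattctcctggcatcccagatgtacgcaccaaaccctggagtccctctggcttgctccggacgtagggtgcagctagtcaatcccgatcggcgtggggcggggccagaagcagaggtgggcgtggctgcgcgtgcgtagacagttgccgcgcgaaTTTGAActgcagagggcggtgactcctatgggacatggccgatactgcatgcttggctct

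Promoters of the same length were present for 31 of the 38 genes and were searched on both strands for 4 motifs; those of Xrcc2, Nbn, Fancd2, Rbbp8, Rad54b, Exo1 and Rad50 were not searched. The CHR letters TTTGAA were found in 5 of the 31 (Ankle1, Bard1, Eme1, Polq and Rad51b), which is 16.1%, against 20.2% of the 27025 genes with a promoter and 17.9% of all promoters. Of 24 genes of G2 and mitosis with a promoter, 18 held it. An E2F motif, searched as TTTCCCGC, TTTGGCGC, TTTCGCGC or TTTGCCGC, was found in 5 of the 31 (Bard1, Brca2, Chek2, Fancg and Rad51c), against 2.6% of genes and 2.26% of promoters, and in 1 of the 24 genes of G2 and mitosis. The CCAAT box, searched as CCAAT, was in 17 of the 31 and in 41.1% of genes and 37.4% of promoters. Of the 24 genes of G2 and mitosis 21 held a CCAAT box. The E-box letters CACGTG, which the circadian activators bind, were in 1 of the 31, Eme1, and in 8.09% of genes and 7.15% of promoters. They were in 2 of the 24 genes of G2 and mitosis. A match is a run of letters and does not show that a factor binds there.

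None of the other 5 nuclease genes passed the test. Gen1, a resolvase of crossed DNA strands, averaged 9.65 ± 2.87 CPM in GF and 15.7 ± 4.67 CPM in SPF libraries (log2 fold change -0.70 ± 0.26, adjusted p = 0.145). Eme1, the partner of the nuclease MUS81, averaged 3.98 ± 0.94 CPM in GF and 5.95 ± 1.499 CPM in SPF libraries (adjusted p = 0.317). Mus81 itself had a log2 fold change of 0.14, with a 95% interval from -0.28 to 0.56. Ercc4 (XPF) and Ercc1 form the nuclease that unhooks crosslinks, and their log2 fold changes were 0.08 and -0.22, with intervals from -0.20 to 0.37 and from -0.68 to 0.25. All 3 intervals include 0.

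Fancd2, the protein that the Fanconi core complex marks with ubiquitin at a crosslink, was the other gene that fell. It had 11.03, 10.4, 6.91 and 8.64 CPM in GF libraries 1 to 4, against 19.4, 18.9, 18.6 and 17.4 CPM in the 4 SPF libraries. The SPF libraries lay close together and each was above each GF library. The gene (ENSMUSG00000034023, chromosome 6, 113531682 to 113597017, plus strand) fell to 9.23 ± 1.85 CPM in GF libraries, against 18.6 ± 0.86 CPM in SPF libraries, a log2 fold change of -1.01 ± 0.18 and 2.01-fold lower (edgeR adjusted p = 0.00811). It was called with any 1 library left out, from -1.12 to -0.89, at -1.07 without GF 2 (adjusted p = 0.013), -0.89 without GF 3 (adjusted p = 0.026) and -1.04 without SPF 5 (adjusted p = 0.0223). Of its 7937 exonic bases, 257 overlap the antisense gene Fancd2os, and no source used here says whether reads were counted by strand.

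Fanci, which forms a clamp on DNA with FANCD2, had 18.6, 10.95, 8.19 and 10.5 CPM in GF libraries 1 to 4, against 14.3, 24.1, 23.7 and 18.9 CPM in SPF libraries. GF 1 was above SPF 1, so the groups overlapped. The log2 fold change of -0.75 ± 0.25 did not pass by edgeR (adjusted p = 0.115), and it passed by limma voom (-1.03, adjusted p = 0.0228) and by edgeR without GF 1 (-1.05, adjusted p = 0.02). Per kilobase of exon, Fancd2 stood at 0.431 to 0.688 of Fanci in GF libraries and at 0.570 to 0.985 of it in SPF libraries. The ratio of this pair therefore overlapped between the groups. Fanci shares 921 of its 5774 exonic bases with Polg on the opposite strand.

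Among the 4 damage-signalling kinases, Atm rose and the others did not pass. Atm, which encodes the kinase that responds to double-strand breaks, had 80.8, 90.3, 95.5 and 91.9 CPM in GF libraries 1 to 4, against 62.9, 69.3, 68.6 and 67.1 CPM in SPF libraries. Each GF library was above each SPF library. The gene (ENSMUSG00000034218, chromosome 9, 53439149 to 53536740, minus strand) averaged 89.6 ± 6.27 CPM in GF and 67.0 ± 2.87 CPM in SPF libraries, a log2 fold change of 0.42 ± 0.09 and 1.34-fold higher (edgeR adjusted p = 0.0179). The call ended without GF 3 (0.39, adjusted p = 0.0553) and without GF 4 (0.41, adjusted p = 0.0568), with the direction kept, and it was called without GF 2 (0.42, adjusted p = 0.0308) and without SPF 5 (0.42, adjusted p = 0.0489). DESeq2 and limma voom also called it.

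Fold changes ran with transcript length in these libraries, and Atm is long, with 10338 bases of exon. Across the tested genes cut into 8 equal bins of exon length, the median log2 fold change was -0.0746 in the shortest bin and 0.129 in the longest, which holds genes of 8783 bases or more. Of the called genes in the shortest bin 5 were higher and 41 lower, and in the longest bin 92 were higher and 25 lower. When a smooth trend with exon length was taken out of each library, an alternative chosen after seeing the data, Atm was at 0.33 ± 0.09 and no longer called (edgeR adjusted p = 0.0516). Under it Fancd2 (-1.06, adjusted p = 0.00644) and Ankle1 (-1.64, adjusted p = 0.0106) were called, and Rbbp8 was called lower (-0.35, adjusted p = 0.0488), where 3.57% of all genes were called. Whether RNA quality or gene biology sets the trend was not tested.

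**Figure D2:**
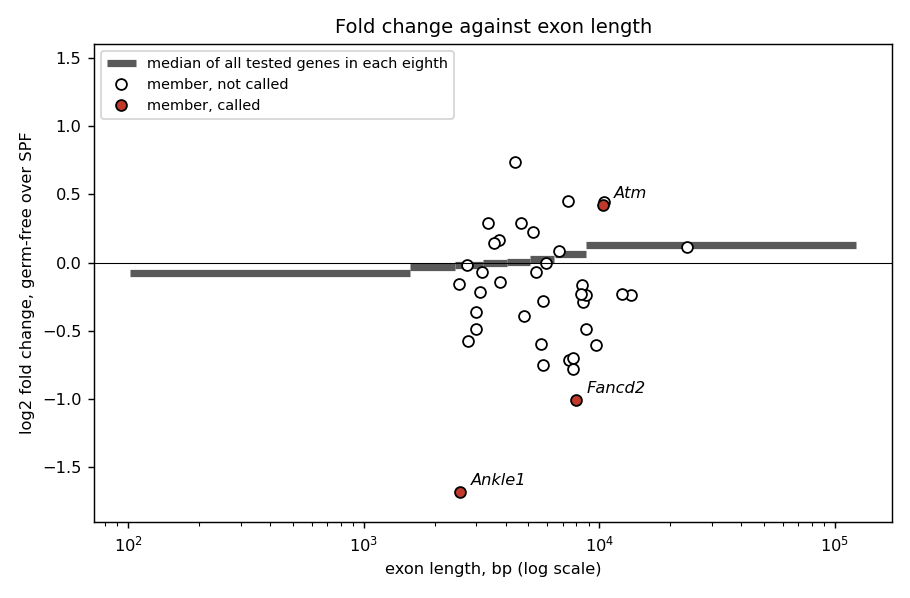
The log2 fold change of GF over SPF (vertical axis) is plotted against exon length in base pairs on a log axis for the 38 repair genes; filled points are the 3 called genes. Grey bars are the median of all tested genes in each of 8 bins of exon length, and they climb from -0.0746 to 0.129 while Fancd2 and Ankle1 lie far below them.

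Atr, the kinase that responds to stalled forks and exposed single strands, had 45.2, 46.6, 44.6 and 45.0 CPM in GF libraries, against 37.2, 44.1, 42.1 and 44.0 CPM in SPF libraries. The groups did not overlap, by a narrow margin, and the log2 fold change of 0.11 did not pass (95% interval -0.10 to 0.33, adjusted p = 0.579). With the length trend taken out it was -0.08. Chek2, the kinase downstream of ATM, had 17.9, 21.3, 18.4 and 16.7 CPM in GF libraries, against 23.5, 22.8, 32.3 and 25.6 CPM in SPF libraries. Each GF library was below each SPF library, but edgeR did not call it (-0.48 ± 0.15, adjusted p = 0.087), while DESeq2 did (adjusted p = 0.0492). Chek1, the kinase downstream of ATR, averaged 9.14 ± 2.91 CPM in GF and 7.43 ± 2.52 CPM in SPF libraries and did not pass (0.29 ± 0.31). The ratio of Atm to Atr in RPKM was 4.09 to 4.90 in GF libraries and 3.49 to 3.86 in SPF libraries, so it did not overlap. The ratio of Chek2 to Chek1 was 2.16 to 5.46 in GF libraries and 4.71 to 9.15 in SPF libraries, and it overlapped through GF 1.

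**Figure D3:**
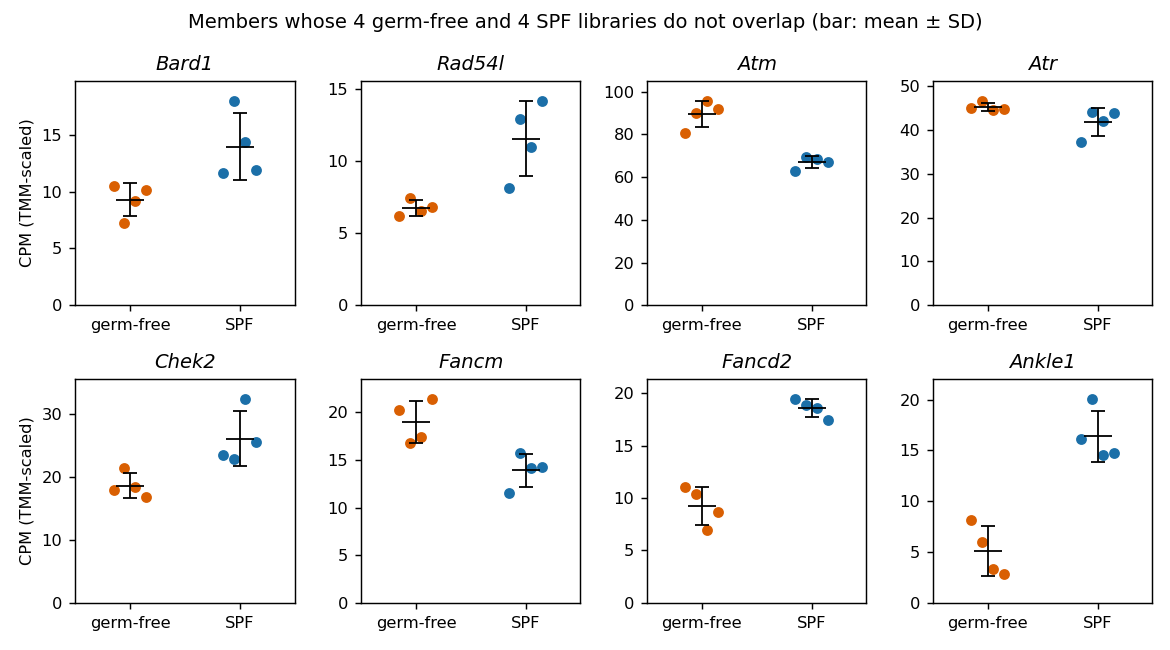
Each panel gives the TMM-scaled CPM of 1 repair gene in the 4 GF libraries (left, orange) and the 4 SPF libraries (right, blue), with bars for the mean ± SD and each axis from 0. The 8 genes shown are those whose groups do not overlap: Bard1, Rad54l, Chek2, Fancd2 and Ankle1 are lower and Atm, Atr and Fancm higher in GF libraries.

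None of the 5 genes of the BRCA loading step was called by edgeR or DESeq2, and limma voom called 1, Brip1. By edgeR and by DESeq2, 3 of the 5 were at an unadjusted p under 0.05, where edgeR put 19.5% of all genes. Bard1, the partner with which BRCA1 forms a ubiquitin ligase, had 10.5, 7.26, 9.15 and 10.1 CPM in GF libraries, against 11.6, 17.9, 14.4 and 11.9 CPM in SPF libraries. The groups did not overlap, with a log2 fold change of -0.59 ± 0.21 (edgeR adjusted p = 0.129). Brca1, the scaffold of the pathway, averaged 23.0 ± 2.59 CPM in GF and 28.1 ± 2.25 CPM in SPF libraries (-0.29 ± 0.13, adjusted p = 0.229). Brca2, which acts on the trimmed single strands, averaged 25.1 ± 2.88 CPM in GF and 29.7 ± 2.61 CPM in SPF libraries (-0.24 ± 0.13, adjusted p = 0.317). Palb2, the bridge between BRCA1 and BRCA2, was the single gene of the 5 above 0 (0.45 ± 0.34, adjusted p = 0.509), and its GF libraries spread from 3.34 to 9.71 CPM. Brip1, a helicase that binds BRCA1, had 6.99, 15.7, 8.70 and 8.64 CPM in GF libraries, against 15.7, 17.7, 16.3 and 16.2 CPM in SPF libraries. GF 2 alone reached the SPF range, and without it Brip1 was at -1.03 and called (edgeR adjusted p = 0.0114), against -0.72 and no call with all libraries (adjusted p = 0.102). The Bard1 promoter (RefSeq, GRCm38.p6, chr1:71102923-71103222, minus strand) is shown as the one among the 31 with matches to both the CHR and the E2F letters. The capitals mark them, TTTGAA 242 bases and TTTCCCGC 209 bases before the start site.
Bard1: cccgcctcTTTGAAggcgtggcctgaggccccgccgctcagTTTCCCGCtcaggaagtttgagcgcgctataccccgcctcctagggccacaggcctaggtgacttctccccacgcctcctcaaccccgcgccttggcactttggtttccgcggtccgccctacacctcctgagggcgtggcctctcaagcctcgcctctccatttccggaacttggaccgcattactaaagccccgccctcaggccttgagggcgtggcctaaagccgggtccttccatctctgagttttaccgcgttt

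Of the 7 strand invasion factors and paralogs, edgeR called 0, and DESeq2 and limma voom each called 1, Rad54l. By edgeR 1 of the 7 was at an unadjusted p under 0.05, against 19.5% of all genes. Rad54l, a motor protein that acts in strand invasion, had 6.18, 7.46, 6.52 and 6.78 CPM in GF libraries, against 8.14, 12.9, 11 and 14.1 CPM in SPF libraries. The groups did not overlap and the GF libraries were close together (-0.78 ± 0.22, edgeR adjusted p = 0.0659). Without SPF 1, its lowest SPF library, edgeR called it (-0.92, adjusted p = 0.0327). In the authors' deposited table Rad54l was among the 4 of the 38 genes with an adjusted p under 0.05 (0.018, with 0.79 on the log2 scale for SPF over GF), with Ankle1, Fancd2 and Atm, where that table called 5.21% of the genes it tested. Rad54l shares 1184 of its 7706 exonic bases with Lrrc41 on the opposite strand. Its relative Rad54b had a log2 fold change of -0.28 and shares 2068 of 5782 exonic bases with Fsbp on the same strand, so its counts are less certain. Rad51ap1, which stimulates strand invasion, was at -0.39 ± 0.34. The paralogs Rad51b, Xrcc2 and Xrcc3, which act at the same step, had log2 fold changes of 0.17, 0.23 and -0.02, with SEs of 0.31, 0.27 and 0.38. Rad51c had the highest fold change of the 38, at 0.73 ± 0.37 (adjusted p = 0.298), from 4.20 ± 1.33 CPM in GF and 2.51 ± 0.64 CPM in SPF libraries.

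The 6 genes of end resection held 0 calls by edgeR, DESeq2 and limma voom. By each, 1 of the 6 was at an unadjusted p under 0.05, where edgeR put 19.5% of all genes. The 3 subunits of the MRN complex, which senses a break and starts the trimming, were measured with narrow intervals. Mre11a, the nuclease subunit, had 36.0, 39.7, 34.8 and 37.1 CPM in GF libraries, against 36.1, 40.0, 33.4 and 37.9 CPM in SPF libraries, and its 95% interval ran from -0.23 to 0.23 on the log2 scale. Rad50, the structural subunit, had 107.5, 97.4, 109.95 and 124.9 CPM in GF libraries, against 114, 125, 107 and 116 CPM in SPF libraries (interval -0.27 to 0.12). Nbn, the subunit that binds ATM, had 35.2, 40.3, 40.2 and 37.9 CPM in GF libraries, against 39.6, 43.7, 44.1 and 43.9 CPM in SPF libraries (interval -0.37 to 0.06). None of the 3 intervals reaches the fold change of Fancd2 or Ankle1. Rbbp8, or CtIP, which starts resection with MRN, had 159, 149, 153 and 190 CPM in GF libraries, against 183.5, 187, 197.5 and 196.5 CPM in SPF libraries. GF 4 alone overlapped the SPF range, and the gene was not called (-0.23 ± 0.09, edgeR adjusted p = 0.159). Exo1, a long-range resection nuclease, and Blm, a helicase that dissolves crossed strands, were at -0.17 ± 0.28 and -0.24 ± 0.22.

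The 7 genes of the Fanconi core complex and its anchor also held 0 calls by edgeR, DESeq2 and limma voom. Where edgeR put 19.5% of all genes at an unadjusted p under 0.05, each test put 1 of the 7 there. That gene was Fancm, the translocase that anchors the complex on DNA, with 20.2, 16.8, 17.4 and 21.4 CPM in GF libraries, against 11.5, 15.7, 14.1 and 14.2 CPM in SPF libraries. The groups did not overlap (0.44 ± 0.16, edgeR adjusted p = 0.145), and like Atm it lies in the longest bin of exon length, with 10440 bases. Fancl, the ligase subunit, was at 0.29 ± 0.26. The other 5 subunits, Fanca, Fancb, Fancc, Fance and Fancg, had log2 fold changes from -0.49 to -0.07. Their SEs ran from 0.18 for Fance to 0.41 for Fancb, whose lowest library held 18 counts. Summed over the 7 genes, the core complex stood at 65.3 ± 2.25 CPM in GF and 64.7 ± 6.82 CPM in SPF libraries, while the Fancd2 and Fanci pair summed to 21.3 ± 6.13 CPM in GF and 38.8 ± 4.50 CPM in SPF libraries. Polq, the polymerase of theta-mediated end joining, a back-up route, averaged 8.98 ± 1.49 CPM in GF and 13.6 ± 3.80 CPM in SPF libraries. It was not called with all libraries (-0.60 ± 0.24, edgeR adjusted p = 0.177), and without SPF 1 edgeR called it (-0.79, adjusted p = 0.0464).

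Per kilobase of exon, the most abundant of the 38 transcripts over the 8 libraries were Rad50 (20.97 RPKM), Nbn (16.03 RPKM) and Rbbp8 (14.1 RPKM). Atm (7.57 RPKM), Chek2 (7.44 RPKM) and Mre11a (6.22 RPKM) came next. Rad50 exceeded Mre11a by 2.71 to 3.72 times in GF libraries and by 3.37 to 3.54 times in SPF libraries. At the other end stood Palb2 (0.728 RPKM), Rad51c (0.765 RPKM) and Fanca (0.809 RPKM). Ankle1 stood at 1.99 RPKM in GF and 6.40 RPKM in SPF libraries. In SPF epithelium it was thus close to the level of Atm, at 6.48 RPKM, and in GF epithelium it was below Atm, at 8.67 RPKM. The ratio of Brca1 to Bard1 was 1.46 to 1.94 in GF and 1.06 to 1.49 in SPF libraries, and that of Mus81 to Eme1 was 1.87 to 4.04 in GF and 1.42 to 2.73 in SPF libraries. Both ratios overlapped between the groups. These ratios were not tested.

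Cell cycle genes were counted beside the repair genes. Of 30 genes of G2 and mitosis 20 fell and 0 rose in GF libraries by edgeR, with a median log2 fold change of -1.10. The 2 with the smallest p were the spindle motor gene Kif11 (-1.23) and the spindle assembly gene Tpx2 (-1.22). The list summed to 3466, 2964, 1796 and 1848 CPM in GF libraries 1 to 4, against 4725, 5965, 5385 and 5023 CPM in SPF libraries. Of 30 S phase genes 3 rose, the replication licensing genes Mcm6 (0.79), Mcm2 (0.85) and Cdt1 (0.84), and 1 fell, the nucleotide reductase gene Rrm1 (-0.48), with a median of 0.20, and DESeq2 and limma voom each called 6 higher and 3 lower. They summed to 1068, 1003, 1322.5 and 1239 CPM in GF libraries, against 783, 1035, 1111 and 1103 CPM in SPF libraries. The 38 repair genes summed to 824 ± 33.0 CPM in GF and 909 ± 46.3 CPM in SPF libraries. In bulk RNA, fewer cells in a phase and less RNA per cell cannot be told apart. Of the 20 calls among genes of G2 and mitosis, 20, 13, 15 and 12 were kept without GF 1, 2, 3 and 4. Without SPF 1, 3, 4 and 5 the calls kept were 16, 6, 6 and 10. The direction of all 20 was kept each time.

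**Figure D4:**
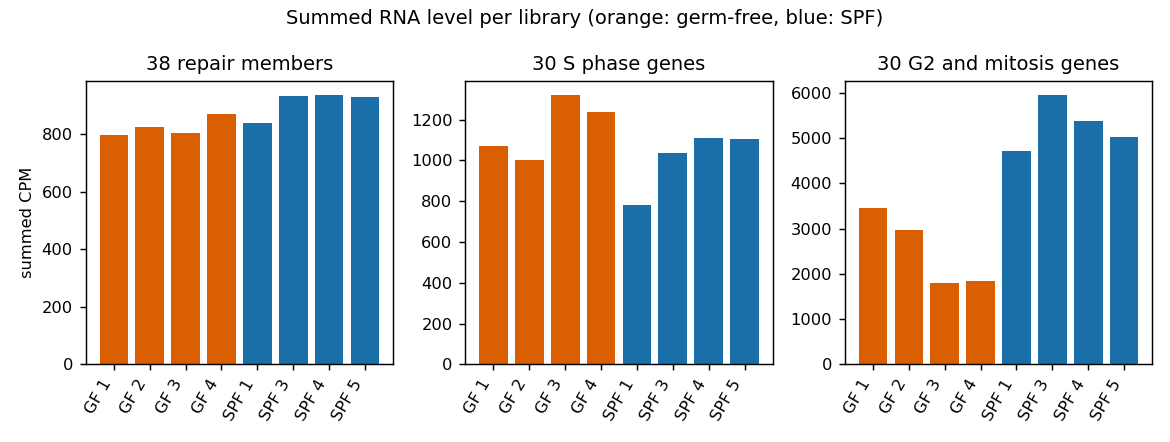
Bars give the summed CPM per library, from 0, of the 38 repair genes, of 30 S phase genes and of 30 genes of G2 and mitosis; GF libraries are orange (left) and SPF libraries blue (right). The G2 and mitosis sum lies between 1796 and 3466 CPM in GF libraries and between 4725 and 5965 CPM in SPF libraries, while the S phase sums overlap.

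Levels of the called genes were also set against the summed level of each list, with no test. Fancd2 stood at 3.18 to 4.67 CPM per 1000 CPM of the G2 and mitosis list in GF libraries and at 3.17 to 4.11 in SPF libraries, so the groups overlapped. Ankle1 stood at 1.56 to 2.36 CPM per 1000 CPM in GF libraries and at 2.71 to 3.4 in SPF libraries, so the groups did not overlap. Atm stood at 23.3 to 53.2 CPM per 1000 CPM in GF libraries and at 11.6 to 13.4 in SPF libraries. Set against the S phase list, Fancd2 was at 5.22 to 10.3 CPM per 1000 CPM in GF libraries and at 15.8 to 24.8 in SPF libraries, and Ankle1 at 2.32 to 7.64 in GF and at 13.1 to 20.5 in SPF libraries. Neither Fancd2 nor Ankle1 overlapped between the groups on that scale. Atm did overlap there, at 72.2 to 90.0 CPM per 1000 CPM in GF libraries and at 60.8 to 80.3 in SPF libraries. On the S phase scale 10 of the 38 repair genes were lower in GF libraries with no overlap and 0 were higher, against 10% and 1.74% of all genes. They were Brca1, Bard1, Rad54l, Rad54b, Rbbp8, Chek2, Fancc, Fancd2, Ankle1 and Polq. On the G2 and mitosis scale 1 of the 38, Ankle1, was lower with no overlap and 21 were higher, against 0.0662% and 62.2% of all genes. These shares move with the sums of the lists, which were lower in GF libraries for G2 and mitosis and overlapped for S phase. The 95% intervals of the fold changes of Ankle1 (-2.32 to -1.03) and Fancd2 (-1.40 to -0.61) overlap, and a difference between the 2 genes was not tested.

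Among 42 tested genes of the same pathway outside the 38, edgeR called 2 higher and 2 lower, and the median log2 fold change was 0.0105. Parpbp, an inhibitor of homologous recombination, fell to 10.3 ± 3.86 CPM in GF libraries, against 24.7 ± 1.46 CPM in SPF libraries (-1.26 ± 0.24, edgeR adjusted p = 0.0125). Rmi2, a subunit of the complex around BLM, rose to 9.85 ± 2.58 CPM in GF libraries, against 3.97 ± 1.24 CPM in SPF libraries (1.32 ± 0.29, adjusted p = 0.0224). Its call ended without GF 2, GF 4, SPF 3, SPF 4 or SPF 5 (edgeR adjusted p from 0.051 to 0.0715), with the direction kept. The translesion polymerase gene Rev3l, named after its value was seen, rose by 0.44 on the log2 scale (adjusted p = 0.0493). With 1 library left out Rev3l was called only without GF 1 (edgeR adjusted p = 0.0203). Of 25 genes of checkpoint and chromatin signalling at breaks, 3 fell and 1 rose. Clspn, which carries the signal from ATR to CHK1, fell to 24.6 ± 1.176 CPM in GF libraries, against 50.4 ± 10.7 CPM in SPF libraries (-1.04 ± 0.14, adjusted p = 0.00186). The histone variant gene H2afx, whose product marks breaks once phosphorylated, fell to 38.3 ± 5.47 CPM in GF libraries, against 68.0 ± 11.01 CPM in SPF libraries (-0.83 ± 0.14, adjusted p = 0.00512). The other calls, named after their values were seen, were Babam1, a subunit of a BRCA1 complex, which fell by 0.39 on the log2 scale (adjusted p = 0.0377), and Rif1, which limits resection and rose by 0.32 (adjusted p = 0.0451). With 1 library left out Babam1 and Rif1 were each called only without GF 1 (edgeR adjusted p = 0.0385 and 0.0303).

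Genes of other repair routes were counted in the same way. Over all genes edgeR called 4.18% and put 19.5% at an unadjusted p under 0.05. Of 10 genes of nonhomologous end joining edgeR called 0, with 1 at an unadjusted p under 0.05, Prkdc (0.39 ± 0.11, adjusted p = 0.0556), which DESeq2 and limma voom called, and Xrcc5 was at 0.17. Of 7 mismatch repair genes 1 rose, Msh6 (0.45 ± 0.10, adjusted p = 0.021). Of 19 base excision repair genes 2 fell and 1 rose. Neil3, a glycosylase that also opens crosslinks, fell to 6.19 ± 1.55 CPM in GF libraries, against 17.2 ± 2.58 CPM in SPF libraries (-1.47 ± 0.22, edgeR adjusted p = 0.00314). The gap-filling polymerase gene Polb fell by 0.72 on the log2 scale (adjusted p = 0.0187), and the third call, named after its value was seen, was the uracil glycosylase gene Ung, which rose by 1.5 (adjusted p = 0.0318). Of 20 nucleotide excision repair genes edgeR, DESeq2 and limma voom each called 0, with 2, 3 and 2 at an unadjusted p under 0.05, and Xpc and Gtf2h5 were at 0.32 and -0.28. Of 21 target genes of p53, the factor that ATM and CHK2 activate, edgeR called 0, with 1 at an unadjusted p under 0.05, and DESeq2 and limma voom each called 1, Gtse1. The smallest p by edgeR were those of Gtse1 (-0.62, adjusted p = 0.0809) and Eda2r (0.54, adjusted p = 0.266). Calls in these lists shifted with single libraries, and no direction did. Of the 4 calls in other crosslink repair 2, 2 and 1 were kept without GF 2, GF 3 and SPF 5, of the 4 in checkpoint signalling 2, 2 and 2, of the 3 in base excision repair 2, 2 and 3, and of the 1 in mismatch repair 1, 1 and 0. Of the 4 S phase calls 4, 2 and 3 were kept, and of the 20 in G2 and mitosis 13, 15 and 10. Without GF 4 the calls kept were 0 of the 4 in other crosslink repair and 2 of the 4 in checkpoint signalling. In base excision repair 1 of the 3 was then kept, and in mismatch repair 0 of the 1. Clspn, H2afx, Neil3, Kif11 and Tpx2 were called with any 1 library left out. Parpbp and Polb were called in each such fit except that without GF 4 (edgeR adjusted p = 0.053 and 0.0566). The labels give neither batch, cage nor hour of sampling, so such a factor, where it ran with the groups, and the microbial status cannot be told apart.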

How the data were processed

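Raw gene counts for 8 libraries were deposited, per the file headers, and were made by the authors from a stranded total RNA kit with ribosomal RNA depletion per the labels' protocols. The submitters' processing notes name the build GRCm38, TopHat2 (2.1.1), HTSeq (0.6.0), cutadapt (1.18), DESeq2 (1.22.2) and bcl2fastq (2.18.0.12), with neither role nor order. The authors' normalized signal columns were counts divided by a size factor per library, per the file headers, and were not used. The authors' deposited log2 fold changes, Wald scores and adjusted p-values were for SPF over GF, and those printed are named as theirs.

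The deposited counts of the whole table were filtered with filterByExpr (minimum count 10, minimum total 15, smallest group 4), scaled by TMM and tested with edgeR's two-sided quasi-likelihood F test (robust, group only, prior count 0.125), with Benjamini-Hochberg adjustment over 15098 genes. SEs come from the F statistic, and 95% intervals use its degrees of freedom. Fold changes are GF over SPF. Exon lengths are the union of exons in GENCODE M21, in which 99.0% of table identifiers have the same start and end. Antisense and overlapping genes are uncertain. The members, lists and tests were chosen with earlier results of these data known. Values in every library were printed for genes called or with groups that do not overlap, and for Rbbp8, Rad50, Nbn and Mre11a, which have the most counts among the rest, and Brip1 and Fanci were added after their values were seen. From each neighbouring list the 2 genes with the smallest unadjusted p were named, except where an item is not reported here. The procedure was tested on simulated counts. The tests ran in edgeR 4.0.16 (R 4.3.3), with DESeq2 1.42.0 and limma 3.58.1 as alternatives.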

Additional observations from a re-analysis of the deposited data

Results flagged for a closer look

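In 4 of 76 sets, each set being the 4 libraries of 1 group for 1 of the 38 repair genes, a single library stood far from the other 3 by Dixon's test, where chance flags about 1 in 20. Brca2 was at 29.4 CPM in GF 2, with the other GF libraries between 23.3 and 24.0 CPM. Rad51ap1 was at 3.75 CPM in GF 1, with the others between 6.40 and 6.78 CPM. Rad51b was at 6.99 CPM in SPF 5, with the others between 4.28 and 4.52 CPM. Nbn was at 39.6 CPM in SPF 1, with the others between 43.7 and 44.1 CPM. None of these 4 genes was called in any fit with all libraries or with 1 left out, and the libraries differ from gene to gene.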

How the results depend on the processing

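Of the 38 repair genes 3 were called under each other scaling and filter run (554 to 659 of all genes), 5 by DESeq2 and 6 by limma voom, and 2 to 5 with 1 library left out. Over all genes, 631 calls became 1257 by DESeq2 and 1010 by limma voom, and 284 to 688 with 1 library left out. Fancd2 and Ankle1 were called under each alternative run, 8 omissions included. The titles give numbers 1, 3 and 4 to both groups and the source names 1 to 4. Same-numbered libraries did not all deviate together by title (correlations 0.192, -0.0821 and -0.0749). By source name each correlation was above 0 (0.192, 0.168, 0.110 and 0.0735). Libraries that share neither number ran from -0.184 to 0.194, a range that holds these values. The correlations thus do not settle whether the source name numbers mark pairs, and the main fit used group only. With the title number as a replicate block 333 genes were called and with the source name number 886, and 3 of the 38 in each, where the title block lost Atm (0.42, adjusted p = 0.0707) and added Brip1. The title block left 1 call among other crosslink repair genes, 0 in mismatch repair and 3 in G2 and mitosis, and gave 1 for p53 targets. The source name block gave 1 for p53 targets and 7 for S phase genes. DESeq2 and limma voom each called 1 end joining gene, 1 p53 target and 9 S phase genes. The exon-length offset left 2 checkpoint calls. With 1 library left out the calls were 0 to 3 for other crosslink repair, 2 to 5 for checkpoint signalling, 0 to 1 for end joining and for mismatch repair, 1 to 3 for base excision repair, 1 to 6 for S phase and 6 to 28 for G2 and mitosis.

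Genes near 0 changed sign. Mre11a was at -0.00165 with DESeq2 size factors, -0.0278 without a filter, -0.00212 by DESeq2, -0.0448 by limma voom, -0.0208 with the title block and -0.0275 with the length offset. The title block put Xrcc3 at 0.0968, Mus81 at -0.0346 and Ercc1 at 0.00883, and the length offset put Xrcc3 at 0.00527 and Atr at -0.0846. Leaving out 1 library gave -0.37 to 0.23 for Xrcc3, -0.0465 to 0.0404 for Mre11a, -0.29 to 0.0301 for Exo1, -0.19 to 0.0658 for Fance, -0.26 to 0.00199 for Fancg, -0.00575 to 0.36 for Rad51b and -0.000319 to 0.16 for Ercc4. The cause was not tested for any of these. Precision varied between genes: Fancb, with 18 counts in its lowest library and 1.32 to 4.22 CPM in GF libraries, had an SE of 0.41, and Rbbp8, with up to 2733 counts, had 0.088. How much of this is depth was not tested.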
